A study of Mus musculus with 6 samples.

Results

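Cytosolic ribosomal proteins are the protein part of the ribosomes that translate nuclear-encoded mRNAs. Their genes were taken by name from a count table of 20295 mouse genes: symbols of the Rpl and Rps series, plus Rplp0, Rplp1, Rplp2 and Rpsa, with the Rps6k kinases left out. The rule found 84 genes on 19 chromosomes. Of these, 31 code for core proteins of the small subunit, 43 for core proteins of the large subunit and 3 for the P stalk of the large subunit, and 7 are paralogues of core genes (Rpl39l, Rpl22l1, Rps27l, Rpl36al, Rpl3l, Rpl10l and Rpl7l1). After a filter on low counts 63 of the 84 were tested, and the other 21 held 0.451% of the reads counted in these genes.

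A ribosome holds a single copy of nearly every ribosomal protein, and cells make these proteins in step. In mammals their mRNAs start with a run of pyrimidines, the TOP motif, through which the kinase mTOR controls their translation, so protein output can change without a change in mRNA. Each core gene has processed pseudogenes, copies of its mRNA inserted elsewhere in the genome, and a few have working paralogues that are expressed in some tissues only. Rpl39l, for example, is best known from male germ cells, and Rps27l is known as a target of p53.

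RNA was sequenced from adipocytes differentiated in culture from stromal-vascular cells, the cells that collagenase releases from fat besides mature adipocytes. They came from 3 depots of male NMRI mice aged 4 to 5 weeks, with 2 libraries each: brown fat (BAT, where interscapular, cervical and axillary pads were pooled), epididymal white fat (eWAT) and inguinal white fat (iWAT). All cultures were kept in 10% newborn calf serum with 30 nM insulin and 1 µM rosiglitazone, an activator of Pparg, and were harvested at day 8 (the tables tag them day 7). Per the labels, cultures were used only if over 50% differentiated, which leaves room for other cells. The labels do not state whether the 2 libraries within a depot were made from different animals or cultures. The p-values hence cover the spread among these samples and no more, and that spread could be purely technical.

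The libraries held from 2889038 to 4807449 counts. CPM are read counts per library set to a common total, scaled between libraries with trimmed-mean factors. The 10 markers of differentiated adipocytes summed to 124773 and 131253 CPM for BAT, 69006 and 66341 for eWAT and 100974 and 80171 for iWAT. Of these sums Scd1 alone held 91779 and 87166 for BAT, 43445 and 36309 for eWAT and 71847 and 52318 for iWAT. On the log2 scale 7 of the 10 were below 0 in BAT minus eWAT. Brown adipocyte markers summed to 5839 and 10863 CPM for BAT, 134.4 and 176.6 for eWAT and 1394 and 1228 for iWAT. The 13 macrophage markers summed to 443.8 and 96.0 CPM for BAT, 4838 and 2145 for eWAT and 658.6 and 194.1 for iWAT. The 12 preadipocyte and fibroblast markers summed to 3845 and 2837 CPM for BAT, 16877 and 18431 for eWAT and 19263 and 20642 for iWAT. None of these markers was at 0 in all libraries. In bulk RNA, fewer cells of a type and less RNA per cell cannot be told apart.

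The coding sequences of the paralogue pairs that the depot differences turned on are shown first, since they tell how far reads from a paralogue and its core gene can be distinguished. They come from the GENCODE M21 annotation of GRCm38, run 5′ to 3′, and have in capitals each base at which the members of a pair differ.
Rpl39l: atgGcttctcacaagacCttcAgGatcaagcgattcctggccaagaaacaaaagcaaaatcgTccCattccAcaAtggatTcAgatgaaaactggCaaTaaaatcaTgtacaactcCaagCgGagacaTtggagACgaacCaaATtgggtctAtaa
Rpl39: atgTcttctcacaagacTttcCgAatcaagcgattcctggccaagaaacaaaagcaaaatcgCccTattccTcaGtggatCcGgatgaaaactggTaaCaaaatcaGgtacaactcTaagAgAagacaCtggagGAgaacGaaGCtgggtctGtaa
Rps27l: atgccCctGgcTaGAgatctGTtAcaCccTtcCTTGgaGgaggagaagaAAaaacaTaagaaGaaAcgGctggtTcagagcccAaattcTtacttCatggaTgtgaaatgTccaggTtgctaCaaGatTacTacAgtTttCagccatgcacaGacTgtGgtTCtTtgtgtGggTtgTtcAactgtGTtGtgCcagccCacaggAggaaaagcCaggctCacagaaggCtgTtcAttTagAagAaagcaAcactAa
Rps27: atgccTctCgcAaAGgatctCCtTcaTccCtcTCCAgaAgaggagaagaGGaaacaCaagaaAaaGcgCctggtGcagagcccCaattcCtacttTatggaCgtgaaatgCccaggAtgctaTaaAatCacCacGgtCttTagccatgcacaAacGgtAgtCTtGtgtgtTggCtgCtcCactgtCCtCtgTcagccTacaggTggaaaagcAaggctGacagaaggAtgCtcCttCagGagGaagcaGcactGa
Rpl39l and Rpl39 differ at 23 of 156 bases (85.3% identity), with a longest identical stretch of 38 bases. Rps27l and Rps27 differ at 61 of 255 bases (76.1% identity), and their longest identical stretch is 11 bases. Among the other pairs, coding identity ran from 55.2% for Rpl7l1 and Rpl7 to 87.9% for Rpl36al and Rpl36a.

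Over the whole mRNA, 100% of the 50-base words of Rpl39l occur in no other annotated gene. For Rps27l that share was 77.6%, and 4 pseudogenes hold the remaining words. Rpl39 had 83.5% such words, whereas Rps27 had 1.35%.

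Rpl39l was low in eWAT and higher in the other depots. Rpl39l (NM_026594, mm9 chromosome 16, 10170321 to 10175004, plus strand) codes for the paralogue of Rpl39, a small protein that lines the exit tunnel for the nascent chain. Its eWAT libraries held 2 and 4 counts, against 69 and 31 in BAT and 124 and 57 in iWAT. As CPM these were 0.466 and 1.14 for eWAT, 14.6 and 11.9 for BAT, and 29.8 and 14.3 for iWAT. The mean was 0.802 ± 0.475 CPM for eWAT, 13.2 ± 1.93 for BAT and 22.1 ± 11.0 for iWAT (SD, n = 2 each). Both eWAT libraries lay below all 4 others, while BAT and iWAT overlapped.

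Rpl39l was 16.5-fold higher in BAT than in eWAT (log2 difference 4.05 ± 0.61 SE, edgeR quasi-likelihood test, adjusted p = 0.0268). It was 27.4-fold higher in iWAT than in eWAT (4.78 ± 0.59), which missed the threshold of 0.05 in the edgeR fit (adjusted p = 0.0777) and passed it with the replicate number as a block (edgeR adjusted p = 0.00341) and in DESeq2 (adjusted p = 1.24e-06). In that contrast the edgeR fit called no gene at all. Between BAT and iWAT the difference was -0.73 ± 0.43 (edgeR adjusted p = 0.448). The size rests on 6 eWAT reads in all: leaving out each library in turn moved the BAT minus eWAT difference between 3.51 and 4.75 and the iWAT minus eWAT difference between 4.14 and 5.48. The call against BAT was lost without BAT replicate 2 (edgeR adjusted p = 0.0907), eWAT replicate 1 (0.124) or eWAT replicate 2 (0.078). It was lost with limma voom too (adjusted p = 0.0717). The authors' deposited table gives Rpl39l a log2 difference of 4.06 in BAT minus eWAT and of -0.75 in BAT minus iWAT, and an adjusted p of 1.09e-28 in iWAT minus eWAT. That table rests on the same 6 libraries and calls 1730 genes in iWAT minus eWAT, so it is not separate evidence.

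Rpl39, the core gene of that pair (NM_026055, mm9 chromosome X, 34622515 to 34625179, minus strand), had 72.7 and 53.9 CPM for BAT, 63.6 and 66.8 for eWAT and 59.9 and 67.9 for iWAT. The libraries of all depots overlapped, and BAT differed from eWAT by -0.04 ± 0.20 and from iWAT by -0.01 ± 0.20 on the log2 scale, with iWAT minus eWAT at -0.03 ± 0.20. Per counted length, Rpl39l made up 8.94% and 9.72% of the pair's signal for BAT, 0.357% and 0.826% for eWAT and 19.6% and 9.37% for iWAT. The share of Rpl39l in the pair's counts per length was thus below 1% in both eWAT libraries and above 8.9% in the other 4. Rpl39 shares 50-base words with 8 annotated pseudogenes and Rpl39l with none, and how such reads were counted is not given. These are therefore shares of counts and not of mRNA.

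Macrophage markers moved the other way to Rpl39l. In BAT minus eWAT 13 of 13 were below 0 and 7 were called lower, and in iWAT minus eWAT 13 of 13 were below 0 with none called. Of the 18 cell cycle genes, 18 were below 0 in BAT minus eWAT and 17 in iWAT minus eWAT, none called, and they summed to 866.7 and 346 CPM for BAT, 1365 and 597.3 for eWAT and 831.1 and 485.7 for iWAT. Other markers moved the same way as Rpl39l. Of 7 tested endothelial markers, 6 were above 0 in BAT minus eWAT and 7 in iWAT minus eWAT, none called. The 5 brown adipocyte markers were above 0 in both contrasts, with 4 called higher in BAT minus eWAT. The 2 tested Schwann markers were also above 0 in both, with 1 called higher in BAT minus eWAT. The part of any of these lists in the Rpl39l difference was not tested.

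Rps27l was highest in BAT. Rps27l (NM_026467, mm9 chromosome 9, 66793925 to 66797316, plus strand), a small-subunit paralogue, had 156.6 and 156.4 CPM in its BAT libraries, 89.5 and 79.1 for eWAT, and 96.2 and 89.5 for iWAT. Each of these values rests on 278 to 741 counts. Both BAT libraries lay above the other 4. Rps27l was 1.86-fold higher in BAT than in eWAT (log2 difference 0.89 ± 0.16, edgeR adjusted p = 0.0352). Against iWAT it was 1.69-fold higher (0.75 ± 0.16), with an edgeR adjusted p of 0.108, or 0.0178 with the replicate block and 0.0253 in DESeq2. iWAT minus eWAT was 0.14 ± 0.16 (edgeR adjusted p = 0.975).

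The Rps27l difference of BAT from eWAT held its size, from 0.81 to 0.99, whichever library was left out, but an edgeR adjusted p over 0.05 resulted each time, from 0.0582 without BAT replicate 1 to 0.147 without eWAT replicate 1. Its edgeR adjusted p was 0.0684 when the fit held only the BAT and eWAT libraries. The authors' deposited table, from the same libraries, calls Rps27l in both BAT contrasts, with log2 differences of 0.89 and 0.71. It calls 3172 genes in BAT minus eWAT and 1672 in BAT minus iWAT, where edgeR called 758 and 122. Neither Cdkn1a nor Mdm2, the usual p53 targets, was called in BAT minus eWAT: their log2 differences were 0.02 ± 0.19 and 0.19 ± 0.19, and that of Trp53, the p53 gene, was -0.50 ± 0.35 (edgeR adjusted p = 0.957, 0.571 and 0.432). In BAT minus iWAT none of the 3 was called either. Mdm2 had 96.8 and 114.7 CPM for BAT against 84.9 and 75.4 for iWAT, with both BAT libraries the higher ones (0.40 ± 0.19, edgeR adjusted p = 0.355), while Cdkn1a was at 0.04 ± 0.19 and Trp53 at -0.30 ± 0.35 (edgeR adjusted p = 0.945 and 0.726). These 3 genes were named after their values were seen, and the part of p53 in the Rps27l difference was not tested. Rps27, the core gene of Rps27l, was listed with 0 counts in every library over a counted length of 1 base, so no ratio of the pair can be given.

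**Figure D1:**
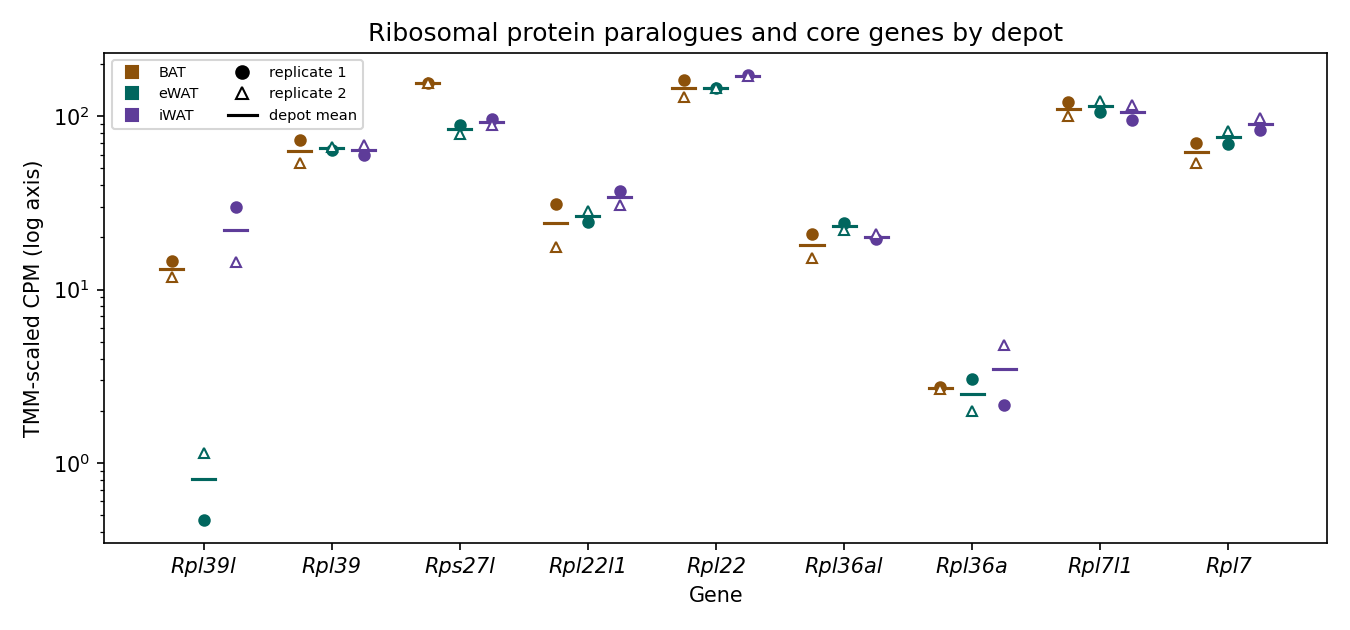
TMM-scaled CPM (log axis) of 5 ribosomal protein paralogues and 4 of their core genes, with circles for replicate 1, triangles for replicate 2 and lines for the depot mean. Rpl39l sits at 0.466 and 1.14 CPM in eWAT against 11.9 to 29.8 elsewhere, and Rps27l at 156.4 and 156.6 CPM in BAT against 79.1 to 96.2.

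The other paralogues showed no called difference. Rpl22l1, whose core partner Rpl22 is known to repress it, had 31.1 and 17.6 CPM for BAT, 24.7 and 28.4 for eWAT and 37.3 and 30.9 for iWAT. Rpl22 itself had 162.5 and 128.9, 146.1 and 145.6, and 172.5 and 170.4 CPM. The BAT libraries of Rpl22l1 spread over the range of eWAT, and its log2 difference was -0.11 ± 0.31 between BAT and eWAT, -0.47 in BAT minus iWAT, and 0.36 in iWAT minus eWAT. Rpl36al, the copy of the X-linked Rpl36a, had 20.9 and 15.3 CPM for BAT, 24.2 and 22.2 for eWAT and 19.5 and 20.9 for iWAT. Its BAT libraries were below both of eWAT by -0.35 ± 0.25 on the log2 scale.

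Rpl7l1, the most diverged paralogue, had 120.5 and 100.2 CPM for BAT, 105.8 and 123.2 for eWAT and 94.8 and 116.9 for iWAT, with all depots overlapping. Its log2 ratio of CPM to Rpl7, not corrected for length, fell into separate ranges: 0.84 ± 0.07 for BAT, 0.59 ± 0.02 for eWAT and 0.22 ± 0.04 for iWAT (SD, n = 2). Rpl7 had 69.7 and 53.9 CPM for BAT, 69.4 and 82.5 for eWAT and 83.0 and 98.0 for iWAT. This ratio was not tested as such, and neither gene was called.

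Rpl3l, which striated muscle uses in place of Rpl3, had 1 count in replicate 1 of each depot and 0 in replicate 2. Rpl10l, a retrogene copy of the X-linked Rpl10 used in the testis, had 2 counts in eWAT replicate 1 and 0 in the other libraries. Both were at or below the level of 3 counts in every library, which is 0.634 to 1.15 CPM, so no fold is given. Counting error is all that this limit covers.

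Most core genes had lower values in BAT than in the other depots, and no core gene was called. Among the 63 tested members, 2 were called higher and 0 lower in BAT minus eWAT (Rpl39l and Rps27l), where 6.46% of the 11732 tested genes were called in either direction, 2.71% higher and 3.75% lower. At an unadjusted edgeR p under 0.05, 2 members were higher and 4 lower in that contrast, against 12.5% and 13.4% of all genes, shares that are larger than those of the members in both directions. No member was called in BAT minus iWAT by edgeR, where 1.04% of all genes were. At the unadjusted level 1 member was higher there and 6 lower, against 7.88% and 8.74% of all genes. None was called in iWAT minus eWAT either, where 0% of all genes were called by edgeR. At the unadjusted level 2 members were higher in that contrast and 0 lower, against 3.9% and 5.44% of all genes. DESeq2 called 2 members in BAT minus eWAT (11.7% of all genes), 1 in BAT minus iWAT (Rps27l, 4.35%) and 1 in iWAT minus eWAT (Rpl39l, 2.57%). The replicate block gave the same numbers of members, with 23.7%, 10.4% and 4.8% of all genes called.

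In BAT minus eWAT 45 of the 63 members had a log2 difference below 0, with a median of -0.22 against -0.03 over all tested genes. In BAT minus iWAT 53 of 63 were below 0, with a median of -0.35 against -0.02. In iWAT minus eWAT 41 of 63 were above 0, with a median of 0.12 against 0.01. The first 2 contrasts share the BAT libraries, so they are not separate evidence. Preadipocyte and fibroblast markers were lower in BAT as well: 10 of 11 tested were below 0 in BAT minus eWAT and 11 of 11 in BAT minus iWAT, with 6 called lower by edgeR in each. Their part, and that of the macrophage markers, in the values of the ribosomal protein genes was not tested.

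By subunit the medians were alike: -0.23, -0.32 and 0.12 for the 21 tested small subunit genes in these 3 contrasts, and -0.22, -0.35 and 0.10 for the 34 large subunit genes. Both BAT libraries lay below both eWAT libraries for 26 members (41.3% of 63, against 28.5% of all genes) and above them for 8 (12.7% against 26.8%). Against iWAT they lay below for 29 members (46.0% against 24.1%) and above for 6 (9.52% against 23.9%). These shares were less alike by subunit than the medians. BAT lay below eWAT for 52.4% of small and 35.3% of large subunit genes, and below iWAT for 66.7% and 35.3%. It lay above for 4.76% of small and 11.8% of large subunit genes in each of these contrasts. In iWAT minus eWAT 13 members were higher without overlap (20.6% against 19.2%) and 6 lower (9.52% against 18.8%).

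The lower level was not shared by both BAT libraries on every measure. The median log2 CPM of the 63 members was 4.98 and 4.43 for BAT, 4.795 and 5.02 for eWAT and 4.92 and 5.11 for iWAT, so replicate 2 of BAT was the lowest library, while replicate 1 lay above replicate 1 of both other depots. Libraries of the same depot differed as well. Within BAT, the median over members of replicate 2 minus replicate 1 was -0.22, within eWAT 0.14 and within iWAT 0.23, where the medians over all genes were 0.04, -0.01 and 0.00. These differences give a pooled SD between replicates of 0.14. The medians over members were -0.22 in BAT minus eWAT, -0.35 in BAT minus iWAT and 0.12 in iWAT minus eWAT. With 2 libraries a depot, setting them against that SD is not a test and cannot decide whether the depots differ. The order of the median log2 CPM also changed with the replicate number. In replicate 1 BAT (4.98) was above eWAT (4.795) and iWAT (4.92). In replicate 2 BAT (4.43) was below eWAT (5.02) and iWAT (5.11). Summed CPM of the members did not change order in this way. In replicate 1 BAT had the lowest sum too, 4333 CPM against 4401 for eWAT and 4728 for iWAT. Leaving out libraries moved the BAT minus eWAT median between -0.33 and -0.13 (the latter without BAT replicate 2) and the BAT minus iWAT median between -0.42 and -0.18 (the latter without iWAT replicate 2). The iWAT minus eWAT median turned to -0.08 without iWAT replicate 2 and was 0.04 without eWAT replicate 1. For the 31 tested members with over 50% of their 50-base words found in no other gene, the medians were -0.09, -0.27 and 0.12.

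**Figure D2:**
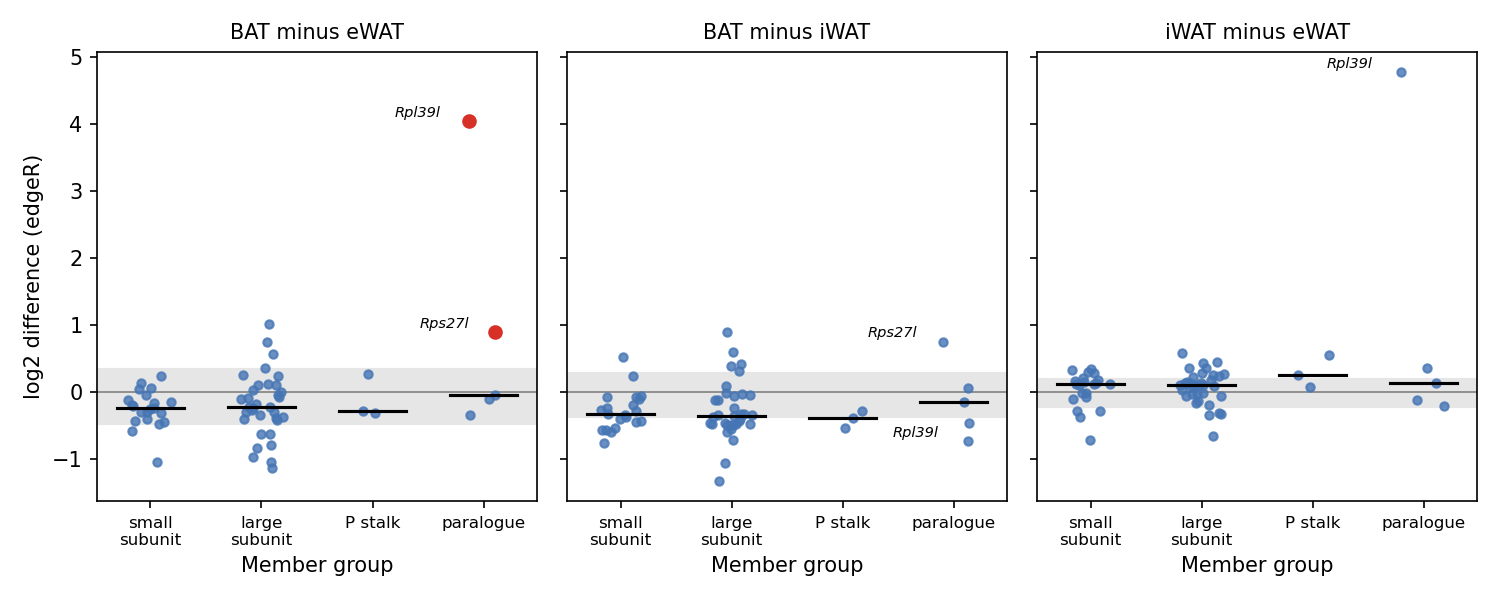
Log2 differences of the tested ribosomal protein genes in each of the 3 depot contrasts, by group, 1 point per gene (red where called), with lines for group medians and grey bands for the middle quartiles of all tested genes. Most core genes lie within 1 log2 unit of 0, with 45 of 63 members below 0 in BAT minus eWAT and 53 of 63 in BAT minus iWAT, while Rpl39l stands at 4.05 and 4.78 in the contrasts with eWAT.

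The core genes with the smallest p-values in BAT minus eWAT were all lower in BAT and none passed. Rpl6 had 24.1 and 18.0 CPM in BAT against 33.3 and 31.9 in eWAT (-0.62 ± 0.23, edgeR adjusted p = 0.158). Rps15, at the decoding face of the small subunit, had 89.6 and 83.0 against 106.9 and 151.0 CPM (-0.58 ± 0.21, edgeR adjusted p = 0.159). In BAT minus iWAT, Rpl7 (-0.54 ± 0.21) and Rps3 (-0.53 ± 0.20), which sits at the mRNA entry of the small subunit, had edgeR adjusted p of 0.268 and 0.271. In each of these pairs of groups both BAT libraries were the lower ones.

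The P stalk, which recruits elongation factors, gave 3 tested genes. Rplp0, its base, had 265.0 and 223.3 CPM for BAT, 265.8 and 326.2 for eWAT and 312.2 and 397.5 for iWAT. Rplp1 had 138.6 and 140.7, 156.8 and 189.1, and 162.9 and 200.6 CPM. For both genes the BAT libraries were the lowest, and BAT minus iWAT was -0.54 and -0.38 (edgeR adjusted p = 0.283 for Rplp0). Rplp2 had 53.7 and 50.9 CPM for BAT, 44.3 and 42.1 for eWAT and 60.4 and 66.6 for iWAT, with no overlap between depots. Its iWAT minus eWAT difference was 0.56 ± 0.16 (edgeR adjusted p = 0.289), and the authors' deposited table gives it an adjusted p of 0.0307. In this contrast that table calls 1730 genes and edgeR no gene. In BAT minus eWAT, Rplp2 was above 0 (0.28 ± 0.16) and its partners Rplp0 and Rplp1 were below (-0.28 ± 0.21 and -0.31 ± 0.19). None of the 3 was called there (edgeR adjusted p = 0.343, 0.471 and 0.357), so a difference between the partners is not established.

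Rpl5, Rpl11 and Rpl23, which can bind the p53 inhibitor Mdm2 when ribosome assembly is disturbed, had differences of -0.84 ± 0.52, -0.97 ± 0.90 and -0.09 ± 0.19 in BAT minus eWAT. Rpl5 and Rpl11 rest on 52 and 44 counts over all 6 libraries, Rpl23 on 1687. None of the 3 was called in any contrast by edgeR.

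As a sum, the 84 genes held 0.384% ± 0.061 of the BAT counts, 0.488% ± 0.038 of the eWAT counts and 0.513% ± 0.071 of the iWAT counts (SD, n = 2). Their summed CPM came to 4333 and 3764 for BAT, 4401 and 4932 for eWAT, and 4728 and 5462 for iWAT. Both BAT libraries were below the other 4, and eWAT and iWAT overlapped. Without the 20 most abundant other genes, which took 17.4% of BAT, 14.5% of eWAT and 16.1% of iWAT counts, the shares were 0.465%, 0.571% and 0.611%. A few genes made up much of the sum: the 20 with the most counts, led by Rps3 and Rpl8, held 81.3% of it.

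The 77 genes of the mitochondrial ribosome, which translates the proteins encoded in mitochondrial DNA, went the other way in BAT. They summed to 5180 and 6680 CPM for BAT, 3453 and 3773 for eWAT and 3894 and 4188 for iWAT. Of 76 tested, 8 were called higher (10.5%, against 2.71% of all genes) and 0 lower in BAT minus eWAT. In that contrast 74 were above 0 with a median of 0.73, against 5580 of all 11732 tested genes and a median of -0.03. In BAT minus iWAT 72 of 76 were above 0 with a median of 0.52, against 5709 of 11732 and -0.02 over all genes. There 0 were called by edgeR, against 1.04% of all genes. Mrpl42 had the smallest adjusted p of the 8 and 116.0 and 138.8 CPM in BAT against 50.1 and 49.2 in eWAT (1.36 ± 0.17, edgeR adjusted p = 0.0209). Cytosolic and mitochondrial sums thus lay on opposite sides of eWAT and iWAT in both BAT libraries. The nearest cytosolic sums were those of replicate 1, with 4333 CPM for BAT and 4401 for eWAT. This difference between the families was not tested. In iWAT minus eWAT both families leaned the same way. There 65 of 76 mitochondrial genes were above 0 (median 0.14) and 41 of 63 cytosolic ones (median 0.12). Over all genes it was 6012 of 11732, with a median of 0.01.

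**Figure D3:**
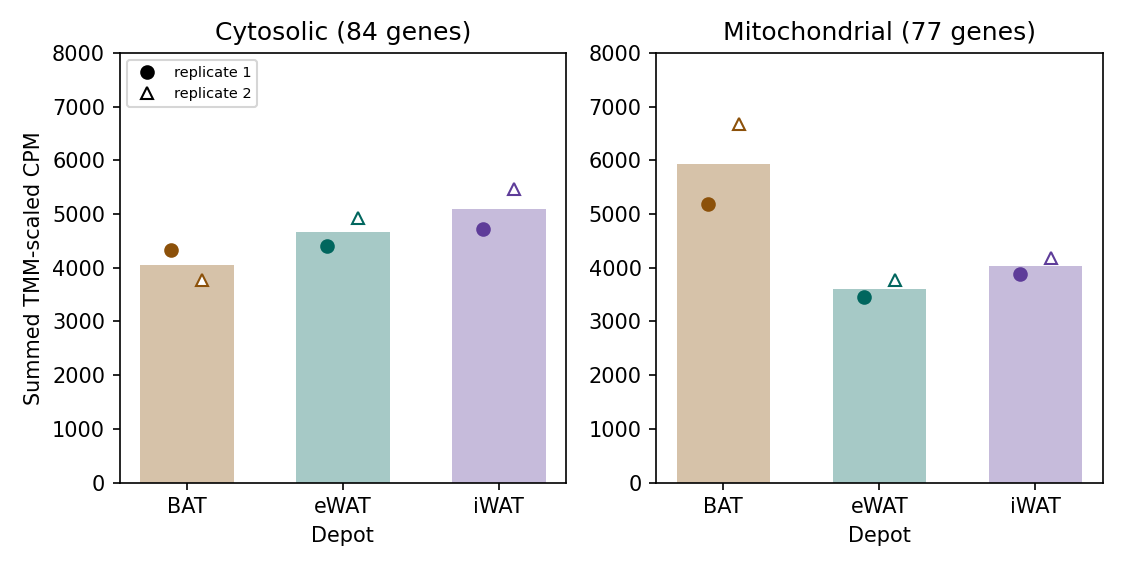
Summed TMM-scaled CPM of the 84 cytosolic and the 77 mitochondrial ribosomal protein genes, points for libraries and bars for the mean of the 2 libraries of a depot. BAT has the lowest cytosolic sums (4333 and 3764) and the highest mitochondrial ones (5180 and 6680).

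Other genes of the translation pathway gave few calls. Of all tested genes, edgeR called 6.46% in BAT minus eWAT, 1.04% in BAT minus iWAT and 0% in iWAT minus eWAT. The 17 tested translation factors with TOP mRNAs had medians of -0.12, -0.20 and 0.11 in the 3 contrasts, with no call. Among them Eef1a1, the main elongation factor, had 899.0 and 714.6 CPM for BAT, 914.8 and 1028 for eWAT and 1074 and 1265 for iWAT, with BAT minus iWAT at -0.53 ± 0.22 (edgeR adjusted p = 0.292). Gnb2l1, which codes for the small-subunit scaffold Rack1, had -0.38 ± 0.21 in BAT minus eWAT and -0.39 ± 0.21 in BAT minus iWAT (edgeR adjusted p = 0.312 and 0.402). The 22 other initiation factors had medians of 0.04, 0.03 and 0.01, and the 35 ribosome biogenesis genes of -0.03, 0.02 and -0.05, with no call in either list. No gene of RNA polymerase I (13 tested) or of ribosome quality control (9 tested) was called. Their medians were -0.01, 0.13 and 0.05 for RNA polymerase I and 0.27, 0.31 and -0.05 for quality control. Of the quality control genes, 7 were above 0 and 2 below in each of the contrasts with BAT.

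Of 17 tested genes of TOR signalling and TOP control, 1 was called, in BAT minus eWAT: Deptor, an inhibitor of mTOR. That is 5.88% of the list, near the 6.46% of all tested genes called in that contrast. Deptor had 109.7 and 114.7 CPM for BAT, 66.4 and 61.7 for eWAT and 110.4 and 101.6 for iWAT. Both BAT libraries were above both eWAT ones (0.81 ± 0.16, edgeR adjusted p = 0.0402). Fau, whose product carries a ribosomal protein but whose symbol falls outside the naming rule, had 8 to 10 counts a library.

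Read counts differed far more between core genes than between depots. Per kilobase of counted length, the mean over the 6 libraries was 0.957 CPM for Rpl35, the lowest core gene with a count. Among the members highest on that scale were Rpl8 (497.4 CPM per kilobase), Rplp1 (352.1), Rpl32 (296.0) and Rpl4 (277.0). Of 77 core genes, 24 had at least 1000 counts over all libraries, 32 had fewer than 100 and 4 had fewer than 10. Those 4 were Rps27 with 0 counts, Rpl34 with 4, Rpl30 with 7 and Rpl26 with 9, over counted lengths of 1, 79, 43 and 23 bases.

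Levels were higher for genes with a larger share of their mRNA found in no other annotated gene. Counting 50-base words, the median level was 3.46 CPM per kilobase for the 22 core genes with under 25% of words unique, 14.4 for the 24 with 25% to 50%, 45.9 for the 22 with 50% to 75% and 180.3 for the 9 above 75%. Spearman's rho over 76 core genes was 0.54, or 0.48 with 36-base and 0.58 with 75-base words. These points are genes counted in the same 6 libraries and are not independent replicates. All but 1 of the 77 core genes shared such a word with an annotated pseudogene, with a median of 9 pseudogenes. The 58 tested core genes had a median of 46.8% unique words and the 19 untested 28.0%.

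Dividing by the number of unique words instead of the length left most of the spread, with an SD of log2 levels of 2.46 against 2.62. How the counting treated reads that fit several places is not given in the sources used here, and its part in these levels was not tested. The levels are therefore given as counts per length and not as mRNA abundance, while each depot difference compares a gene with itself under the same counting.

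**Figure D4:**
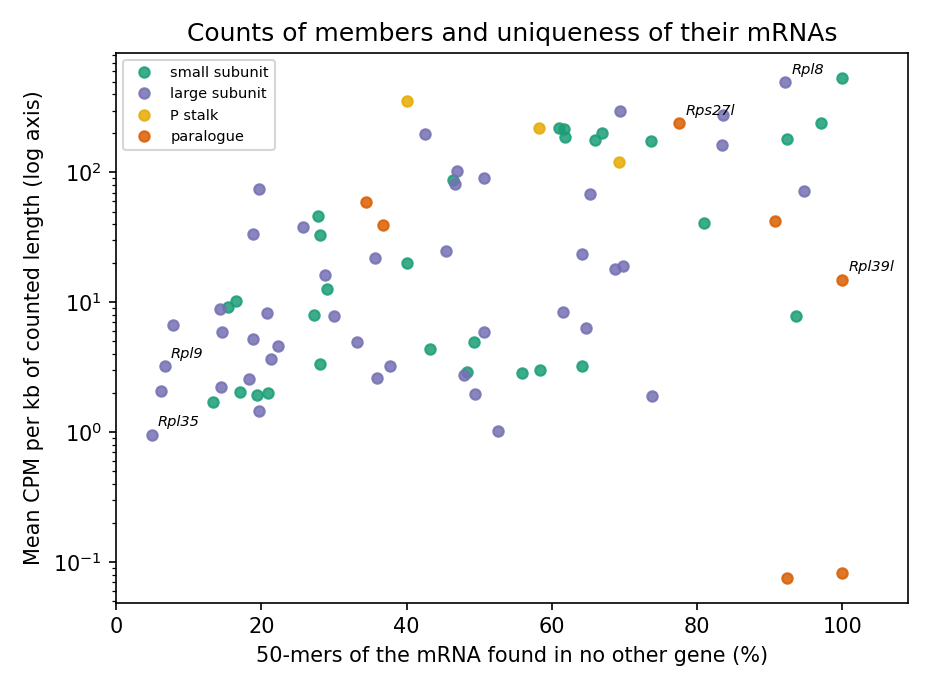
Mean TMM-scaled CPM per kilobase of counted length (log axis) against the percentage of 50-base words of the mRNA found in no other annotated gene, for the 83 members with a count. Among core genes Rpl35 lies at 0.957 and Rpl8 at 497.4, and Rpl3l and Rpl10l lie lowest despite mRNAs with over 90% unique words.

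Start sites are shown for the same pairs because TOP mRNAs begin at a pyrimidine run. The windows run from 40 bases before to 20 bases after the RefSeq start on GRCm38.p6, 5′ to 3′ on the gene's strand. Capitals mark matches to CTTTCC or CGGAAG (a core of ETS-type sites) on this strand.
Rpl39l, chr16:10170188-10170247, plus strand: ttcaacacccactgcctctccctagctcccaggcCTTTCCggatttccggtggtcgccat
Rpl39, chrX:37085203-37085262, minus strand: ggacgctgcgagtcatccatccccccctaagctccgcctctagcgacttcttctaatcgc
Rps27l, chr9:66946046-66946105, plus strand: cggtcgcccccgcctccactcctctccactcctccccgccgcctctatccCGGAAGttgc
Rps27, chr3:90213629-90213688, minus strand: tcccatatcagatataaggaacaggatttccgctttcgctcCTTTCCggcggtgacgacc
Of these 4 windows, only that of Rps27 has a C at the annotated start followed by 4 pyrimidines. In the Rps27l window the start is a g followed by cctct, and in that of Rpl39l CTTTCC ends just before the start. Only the exact annotated base was checked, and how near it lies to the start used in these cultures was not tested. Over 300-base promoters of the 64 members matched by symbol (76 promoters), 17.1% had a C at the annotated start followed by 4 pyrimidines, against 2.51% of all 32851 promoters. CTTTCC on either strand was in 50.0% against 26.6%, and CGGAAG on either strand in 60.5% against 16.9%. A match describes letters in the window and not a bound site, and no match says only that the letters are not in that window. For Rps27l the table holds another start as well, whose window has none of these motifs.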

How the data were processed

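RNA was depleted of rRNA and TruSeq libraries were prepared, per the labels' protocols. Reads were aligned with STAR to mm9, per the submitters' processing notes; for version, counting program, reads with several matches, read length and strand, nothing is given in the sources used here. The count table, as deposited, holds whole-number counts per RefSeq gene, not normalized per the file headers, with the counted length (another deposited column, in bases). Starts in it are counted from 0 and are printed from 1. A second table deposited by the authors holds log2 values, log2 differences, p-values and a likelihood ratio score; it was only quoted.

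Members were found by symbol. filterByExpr kept 11732 of 20295 genes. The test was edgeR's quasi-likelihood F test (edgeR 4.0.16, R 4.3.3) on all 6 libraries with depot as the term and TMM factors (0.907 to 1.05), two-sided, with Benjamini-Hochberg adjustment over all tested genes and a threshold of 0.05. Its common coefficient of variation was 0.251. SE is the log2 difference divided by the square root of F. Alternatives were DESeq2 1.42.0, limma 3.58.1 (voom), other scalings and filters, a replicate block and leaving out each library. The fitting script was tested on simulated data. Depth was 2889038 to 4807449 counts a library, and 3 counts were 0.634 to 1.15 CPM. A pseudocount of 0.5 CPM was used in paralogue ratios.

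Deviations of same-numbered libraries correlated at 0.411 (BAT and eWAT), 0.447 (BAT and iWAT) and 0.555 (eWAT and iWAT). The replicate numbers, which come from the labels, were therefore used as a pairing in the replicate block. The main edgeR fit left this pairing out, so its SE and p-values do not take it into account. The labels do not say what a number marks, and replicate 1 was the deeper library in every depot. Members and lists were chosen with earlier results of these data known. Named were all paralogues with their core genes where they had counts, the P stalk, called members, members under 10 counts, and up to 3 called genes per other list. The 3 smallest adjusted p per contrast and the 5 highest levels per length were named too, but not all of these are reported here. Exceptions named after their values were seen are Rpl5, Rpl11, Rpl23, Rpl35, Rps15, Eef1a1, Gnb2l1, Fau, Trp53, Mdm2, Cdkn1a and Scd1. Unique words of 36, 50 and 75 bases were counted against all GENCODE M21 transcripts with Python 3.11.15, and all 84 members matched there by RefSeq identifier. Of the members, 6 overlap a row on the opposite strand (Rpl31, Rpl32, Rpl35, Rpl5, Rps25 and Rps27a).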

Additional observations from a re-analysis of the deposited data

How the results depend on the processing

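The number of members called depended on the test. In BAT minus eWAT it was 2 in the edgeR fit reported, 1 with limma voom (Rps27l), 1 with only the libraries of those depots (Rpl39l) and 0 to 1 when a library was left out. In BAT minus iWAT it was 0, but 1 (Rps27l) with DESeq2 or the replicate block, and 0 whichever library was left out. In iWAT minus eWAT it was 0, but 1 (Rpl39l) with DESeq2, with the replicate block or without a filter on low counts, and 0 with any library left out. With a library left out, the median of members ran from -0.417 to -0.181 in BAT minus iWAT and from -0.084 to 0.205 in iWAT minus eWAT, with the values nearest to or below 0 without iWAT replicate 2. The cause was not tested. Over all genes the calls in the same 3 contrasts were 758, 122 and 0 with edgeR, 1370, 510 and 301 with DESeq2, and 2780, 1225 and 563 with the replicate block, which changed no other member's call. Member shares of counts were 0.465% in BAT, 0.571% in eWAT and 0.611% in iWAT without the 20 most abundant other genes. Without TMM factors the median of all genes shifted by -0.15, -0.09 and -0.06 in the 3 contrasts, and Rpl7l1 turned to -0.025 in BAT minus iWAT. Leaving out libraries turned the sign of small differences: Rpl22l1 ran from -0.59 to 0.22 in BAT minus eWAT, Rpl36al from -0.40 to 0.06 in BAT minus iWAT and Rplp1 from -0.084 to 0.216 in iWAT minus eWAT. Rpl39 ran from -0.27 to 0.15, -0.24 to 0.19 and -0.12 to 0.045 in the 3 contrasts, and Rpl7l1 from -0.185 to 0.071, -0.078 to 0.223 and -0.269 to 0.018. The medians for members with over 50% unique words, and for the 26 with at least 1000 counts (-0.26, -0.36 and 0.12), were chosen after seeing the data.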
